A study of Mus musculus with 60 samples.

Results

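Expression of 5 transcription factors of forebrain neurons (Dlx1, Dlx2, Tbr1, Eomes and Mef2c) and of the secreted protein reelin (Reln) was examined across hippocampus, hypothalamus and brain stem of mice with and without mammary tumors. These 6 genes were taken by symbol from the 770 genes of a nanoString nCounter panel for mouse neuroinflammation, which counts RNA molecules with bar-coded probes and no amplification. The animals were 20 female Balb/C mice aged 13 weeks. Tumor-bearing mice had been injected in the inguinal mammary glands with 67NR cells, a line grown from 1 mouse mammary carcinoma that does not spread to other organs, and vehicle injected mice with the culture medium DMEM alone. Tissue was collected on day 25, either at mid-dark (zeitgeber time, hours after lights on, of 19) or at mid-light (zeitgeber time 7). This gave 4 groups of 5 mice, and each mouse gave up to 3 regions, with values for 20 hippocampi, 17 hypothalami and 19 brain stems. The whole region was extracted, so every value averages over all of its cells, and fewer cells of a type cannot be told apart from less RNA in each cell.

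Dlx1 and Dlx2 are homeobox factors that direct progenitors of the ventral forebrain to become GABAergic neurons, and they stay on in a part of those cells in adults. Tbr1 and Eomes (also called Tbr2) are T-box factors of the glutamatergic lineage, in which Eomes marks intermediate progenitors, including those of the adult dentate gyrus, and Tbr1 follows in postmitotic neurons; Eomes is also used by T and NK lymphocytes. Mef2c is a MADS-box factor switched by calcium signals through calcineurin and class IIa histone deacetylases, and it limits the number of excitatory synapses. Cajal-Retzius cells and some GABAergic neurons are among the cells that secrete Reln. It binds the receptors Vldlr and Lrp8 on neighboring neurons, which signal through Dab1 to guide layering and, in adults, synaptic strength.

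In the mouse assembly GRCm38.p6 of RefSeq, Tbr1 lies at chr2:61802863-61814114, Reln at chr5:21884454-22344705, Eomes at chr9:118478186-118486132 and Mef2c at chr13:83504017-83667079. Dlx1 (chr2:71528113-71533981) and Dlx2 (chr2:71543408-71546754) are neighbors, with the first base of Dlx2 9427 bases past the last base of Dlx1. RefSeq promoter windows, 250 bases before to 50 after a start site, were given for 8 starts of these genes, 3 of them of Mef2c. A short stretch of the Tbr1 window is shown because it holds the 6-base core TAATTA, which DLX and many other homeodomain proteins can bind, at 2 places. The stretch is chr2:61804415-61804444 on the plus strand, with the cores in capitals, their first bases 33 and 18 bases before the start.
Tbr1: tatccTAATTAatgtctatcTAATTAaatt
The core reads the same on both strands. It was also in 1 Mef2c window, and 5.29% of all 32851 windows held it. The T-box core GGTGTGA, searched on both strands, was in none of the 8 windows and in 3.98% of all windows. A match is only a description of the letters.

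The 250 bases before the starts of Dlx2 (chr2:71546755-71547004, minus strand) and Reln (chr5:22344706-22344955, minus strand) are shown because Dlx2 moved with its neighbor Dlx1 across regions, with large differences, while the largest region difference of Reln was smaller than that of any other of the 6 genes. CpG dinucleotides, the sites of DNA methylation, are in capitals.
Dlx2: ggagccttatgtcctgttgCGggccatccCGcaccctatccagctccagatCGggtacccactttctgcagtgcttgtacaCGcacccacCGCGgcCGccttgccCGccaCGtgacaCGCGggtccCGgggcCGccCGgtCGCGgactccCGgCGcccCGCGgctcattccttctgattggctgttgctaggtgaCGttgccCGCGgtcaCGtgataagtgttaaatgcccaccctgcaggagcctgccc
Reln: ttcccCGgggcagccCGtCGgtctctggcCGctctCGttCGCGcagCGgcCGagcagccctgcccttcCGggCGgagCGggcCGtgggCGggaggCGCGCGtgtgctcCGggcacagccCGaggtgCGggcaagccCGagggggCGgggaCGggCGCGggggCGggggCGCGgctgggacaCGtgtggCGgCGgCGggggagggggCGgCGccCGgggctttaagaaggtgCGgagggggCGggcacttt
Over the whole window Reln had 47 CpG, and 98.6% of all windows had fewer. Dlx2 had 29 and Dlx1 27, against a median of 7 over all windows, and Tbr1 had 7. DNA methylation was not measured in these samples.

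All values are log2 normalized counts. The deposited table has no raw counts, so depth is unknown for every sample and precision is set by the number of mice. The sample medians ran from 8.07 to 8.09. The vesicular glutamate transporters were checked against the region labels: Slc17a7 was highest in hippocampus (12.65 to 13.29), and Slc17a6 was highest in hypothalamus (13.01 to 13.41) and brain stem (12.46 to 13.04). Slc17a7 varied widely in hypothalamus (4.85 to 9.05), and Ttr, the transthyretin of choroid plexus, varied widely in hippocampus (5.36 to 14.71) and brain stem (6.49 to 13.77). Slc17a6 varied in hippocampus (7.20 to 10.06), and Nrgn, another excitatory neuron marker, in brain stem (7.49 to 10.30). RNA purity also varied: the A260/280 ratio, which falls with protein or phenol, reached 1.34 in brain stem, and the A260/230 ratio, which falls with salts or phenol, reached 0.44 in hypothalamus. These spreads are given again beside the members that moved with them, except that Nrgn was not tested beside the members. Nrgn was, however, the panel gene with the highest Pearson r to Mef2c within brain stem (0.75 after group means were subtracted). No value of the 6 genes was at the lowest value of the table, but background had been subtracted before, so that value is no limit of detection. Dlx1, Dlx2 and Tbr1 had means of 3.50, 3.56 and 3.89 in brain stem. Their folds against brain stem rest on these low values.

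The Dlx pair was highest in hypothalamus and lowest in brain stem. Dlx1 ran from 7.98 to 9.04 in hypothalamus (median 8.34), from 6.75 to 7.76 in hippocampus (median 7.30) and from 2.19 to 5.87 in brain stem (median 3.55). The 3 regions did not overlap. On the fitted scale Dlx1 was 30.4-fold higher in hypothalamus than in brain stem (log2 difference 4.93 ± 0.14 SE, limma adjusted p = 1.9e-32), the smallest p value of the panel in that comparison. It was 14.1-fold higher in hippocampus than in brain stem (log2 difference 3.82 ± 0.13, adjusted p = 2.0e-30). Within mice, Dlx1 was higher in hypothalamus than in hippocampus in 17 of 17 animals with both regions, by 2.16-fold in the fit (adjusted p = 4.5e-10).

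Dlx2, the partner of Dlx1 in the same lineage, followed the same order. It ran from 5.92 to 7.32 in hypothalamus (median 6.77), from 5.29 to 6.21 in hippocampus (median 5.87) and from 1.87 to 4.37 in brain stem (median 3.71). Hypothalamus and hippocampus overlapped, but hypothalamus was higher in 17 of 17 mice, with a log2 difference, hippocampus minus hypothalamus, of -0.91 ± 0.15 (adjusted p = 2.8e-07). Against brain stem, Dlx2 was 9.05-fold higher in hypothalamus and 4.82-fold higher in hippocampus (adjusted p = 3.3e-24 and 4.4e-20).

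**Figure D1:**
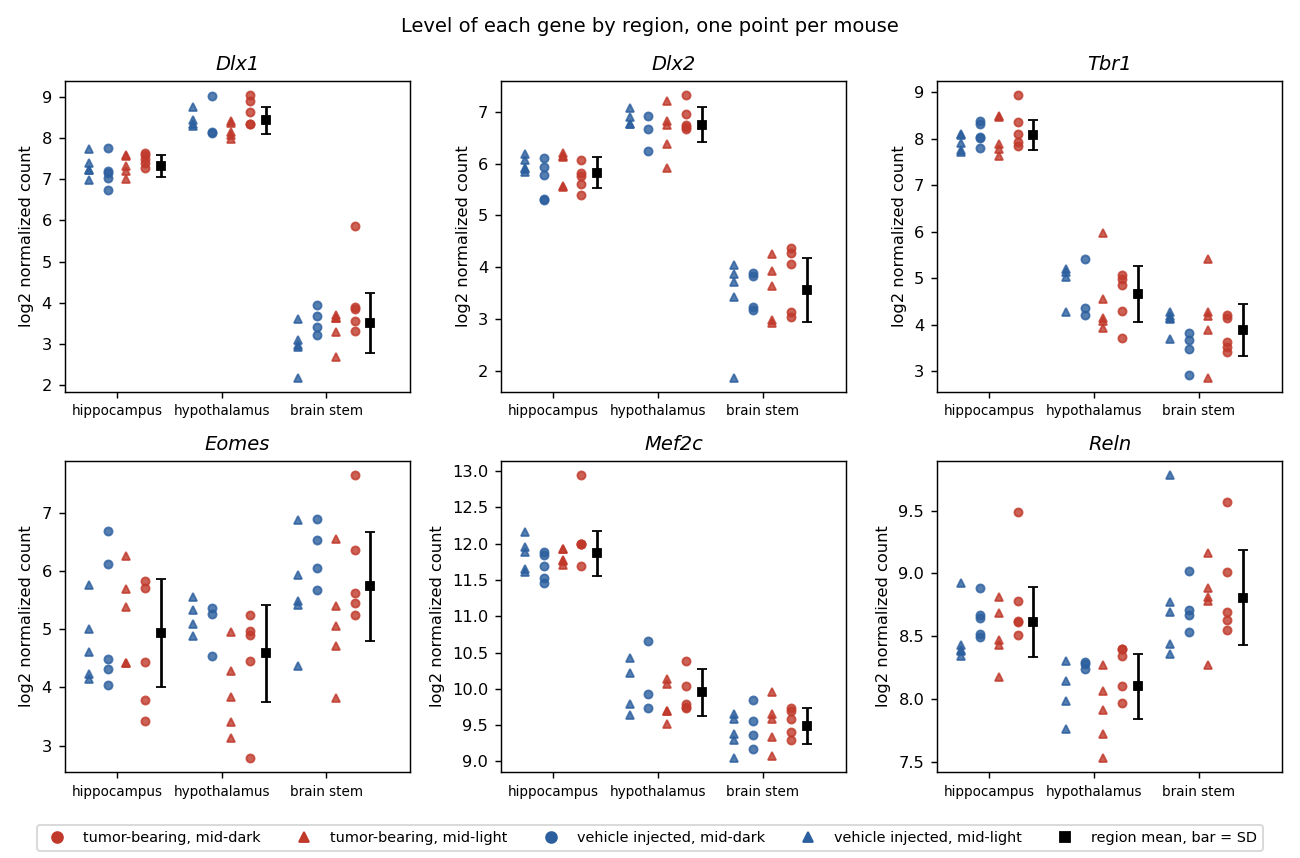
Log2 normalized count of each gene (y axes differ between panels) in hippocampus, hypothalamus and brain stem. Each colored point is 1 mouse, by tumor status and phase, and the black square and bar are the region mean and SD over 20, 17 and 19 mice. Dlx1 and Dlx2 are low in brain stem, Tbr1 and Mef2c are high in hippocampus, and Eomes spreads widely within each region.

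Tbr1, the factor of postmitotic glutamatergic neurons, was high in hippocampus and low in the other regions. It ran from 7.63 to 8.94 there (median 8.02), from 3.73 to 5.98 in hypothalamus (median 4.56) and from 2.87 to 5.42 in brain stem (median 3.89). Every hippocampus was above every sample of the other regions. The differences were 10.6-fold over hypothalamus (log2 difference 3.40 ± 0.15, adjusted p = 4.5e-25) and 18.5-fold over brain stem (log2 difference 4.21 ± 0.15, adjusted p = 7.4e-30). The low regions overlapped, with hypothalamus higher in 13 of 16 mice and by 1.75-fold in the fit (adjusted p = 1.3e-05).

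Mef2c, the activity-dependent MADS-box factor, was also highest in hippocampus, but it was well measured in all 3 regions. Its values ran from 11.46 to 12.94 in hippocampus (median 11.86), from 9.51 to 10.66 in hypothalamus (median 9.79) and from 9.05 to 9.96 in brain stem (median 9.56). Hippocampus stood clear of the other regions, 3.71-fold above hypothalamus and 5.23-fold above brain stem (log2 differences 1.89 ± 0.09 and 2.39 ± 0.09, adjusted p = 6.2e-24 and 5.5e-29). Hypothalamus and brain stem overlapped and differed by 1.41-fold, with hypothalamus higher in 15 of 16 mice (adjusted p = 8.2e-06).

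By its largest difference Reln varied least between regions of the 6 genes, and its order was brain stem, hippocampus and hypothalamus. Its values ran from 8.27 to 9.78 in brain stem (median 8.71), from 8.17 to 9.49 in hippocampus (median 8.57) and from 7.53 to 8.40 in hypothalamus (median 8.14). All regions overlapped. Hypothalamus was nevertheless the lower region in every mouse, in 17 of 17 against hippocampus (log2 difference, hippocampus minus hypothalamus, 0.51 ± 0.10, adjusted p = 8.4e-06) and in 16 of 16 against brain stem (hypothalamus minus brain stem, -0.70 ± 0.10, adjusted p = 2.3e-08). Hippocampus and brain stem did not differ beyond the threshold (log2 difference -0.19, 95% confidence interval -0.38 to -0.0039, adjusted p = 0.059). This last call was borderline: without mouse 7, whose hippocampus had the highest Reln of its region, the adjusted p was 0.0106, and leaving out mouse 10, 29 or 30 also brought it under 0.05.

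Eomes, known as a factor of intermediate progenitors, was highest in brain stem rather than in hippocampus, and the cells that carried it were not identified. It ran from 3.82 to 7.65 in brain stem (median 5.62), from 3.43 to 6.69 in hippocampus (median 4.55) and from 2.79 to 5.55 in hypothalamus (median 4.90). The regions overlapped over most of their ranges. Brain stem was higher than hypothalamus in 15 of 16 mice, by 2.19-fold in the fit (log2 difference, hypothalamus minus brain stem, -1.13 ± 0.28, adjusted p = 0.00046), but in vehicle injected mice alone this adjusted p was 0.0531. Brain stem was higher than hippocampus in 13 of 19 mice, by 1.79-fold (adjusted p = 0.0045). Hippocampus and hypothalamus did not differ beyond the threshold (0.30, 95% confidence interval -0.27 to 0.86, adjusted p = 0.346), and the sign turned to -0.16 in vehicle injected mice alone.

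**Figure D2:**
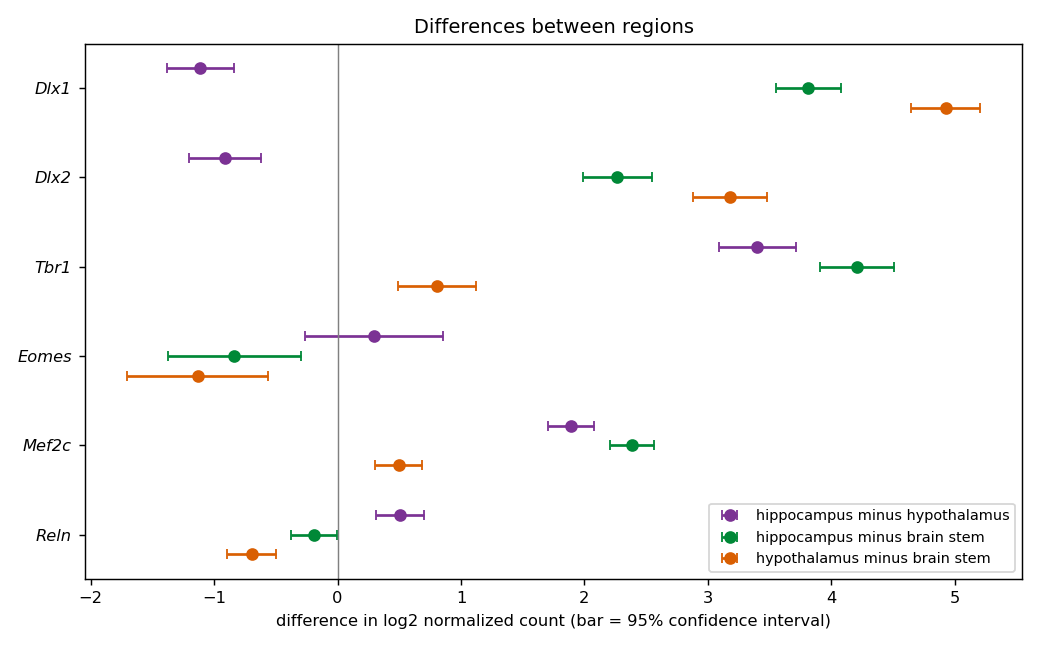
Fitted differences in log2 normalized count between regions (x axis) for each of the 6 genes (y axis), with 95% confidence intervals. Dlx1 and Dlx2 lie to the left of 0 for hippocampus minus hypothalamus and far to the right for both differences from brain stem, Tbr1 and Mef2c lie to the right throughout, and Eomes has the widest intervals.

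Between regions 5 of the 6 genes passed the adjusted threshold of 0.05 for hippocampus against hypothalamus, where 71.7% of the panel passed. The same number passed for hippocampus against brain stem, where 76.6% of the panel passed, and all 6 passed for hypothalamus against brain stem, against 66.5%. The counts are therefore near the background of the panel, and the size and direction of the differences carry the description.

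Genes that work with these factors were read from lists taken whole. Of 16 measured regulators of MEF2 factors and activity genes, 13 were higher and 3 lower in hippocampus than in brain stem, with a median log2 difference of 1.05 against -0.03 over the panel. Ppp3ca, the catalytic calcineurin subunit that relays calcium to MEF2 factors, was higher in hippocampus than in brain stem by 2.39 and than in hypothalamus by 2.48 on the log2 scale (adjusted p = 8.5e-63 and 1.1e-62). Homer1, a postsynaptic scaffold, was higher by 1.67 and 1.55. Against hypothalamus 12 of the 16 were higher in hippocampus and 4 lower, and between hypothalamus and brain stem 11 were higher, 3 lower and 2 did not pass, with Ep300, an acetyltransferase coactivator, at 0.38 and Ppp3cb, another calcineurin subunit, at 0.34.

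The reelin pathway list had 12 genes on the panel, while its receptors Vldlr and Lrp8 and the adaptor Dab1 were not on it. In hippocampus 7 of the 12 were higher and 5 lower than in brain stem, and 7 were higher, 4 lower and 1 not past the threshold against hypothalamus. The NMDA receptor subunits Grin2b and Grin2a, whose activity reelin modulates, were higher in hippocampus than in brain stem by 2.89 and 2.43 on the log2 scale. Grin2a and the PI3-kinase subunit Pik3r2 were higher in hippocampus than in hypothalamus by 2.96 and 1.10. For hypothalamus against brain stem 6 were higher and 5 lower, with Grin2b at 1.24 and Pik3cb, a catalytic PI3-kinase subunit, at -0.56. Grin2a, 1 of the 5 lower genes and named here beyond the 2 lowest in p value, was at -0.53 in that comparison (adjusted p = 2.2e-10). It was thus lowest in hypothalamus, as Reln was, and Grin2b was not.

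Among 14 measured genes of cell division and immature neurons, read beside Eomes, 5 were higher and 7 lower in hippocampus than in brain stem. Lig1, a DNA ligase of replication, had a log2 difference of -1.23, and Mcm6, a helicase subunit, of 1.75. Against hypothalamus 4 were higher and 6 lower, with Lig1 at -1.48 and Stmn1, a tubulin regulator of immature neurons, at -1.35. For hypothalamus against brain stem 8 were higher and 6 lower, led by the chromatin remodeler Hells at -0.67 and the progenitor factor Sox4 at 0.57. Of 33 neuron and synapse genes, 23 were higher and 6 lower in hippocampus than in brain stem, 24 higher and 7 lower than in hypothalamus, and 21 were higher and 10 lower in hypothalamus than in brain stem. Gria2, an AMPA receptor subunit, and Islr2, a neuronal membrane protein, led hippocampus against brain stem with log2 differences of 2.30 and 4.73, and led hypothalamus against brain stem with 1.04 and 2.59.

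The genes with the most similar pattern were ranked by r over all 56 samples. Tbr1 was most like Lingo1 (Pearson r = 0.97), Prkce (0.97) and Ppp3r1 (0.96), and Mef2c was most like Ppp3cb, Ppp3r1 and Prkce (r = 0.96 each). Dlx1 was most like Ehmt2, Dlx2 and Ets2 (r = 0.94 each), and Dlx2 was most like Dlx1 (0.94), Ets2 (0.90) and Ehmt2 (0.90). For Reln (B3gnt5 0.68, Casp1 0.66, Ccni 0.65) and Eomes (B3gnt5 0.57, Ezh2 0.57, Chn2 0.56) no gene came as close. These values are the highest of 769 and are descriptions only, and the samples share mice.

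Within hippocampus, with group means subtracted, the nearest genes were others. Dlx1 and Dlx2 were both most like Col6a3, a collagen chain (r = 0.75 and 0.78, n = 20), followed by Ptprc and Prkar2b (0.62 each) for Dlx1 and Plxnb3 (0.73) and H2-T23 (0.71) for Dlx2. Tbr1 was most like Rgl1 (0.81), Clstn1 (0.81) and Lingo1 (0.80). Mef2c was most like Casp1 (0.87), Prkar2b (0.75) and Pak1 (0.73), Reln like Stmn1 (0.85), Trim47 (0.79) and Gria4 (0.78), and Eomes like Spint1 (0.76), Chn2 (0.67) and Gsn (0.67). Lingo1, a neuronal inhibitor of myelination, was thus near Tbr1 both across regions and within hippocampus.

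**Figure D3:**
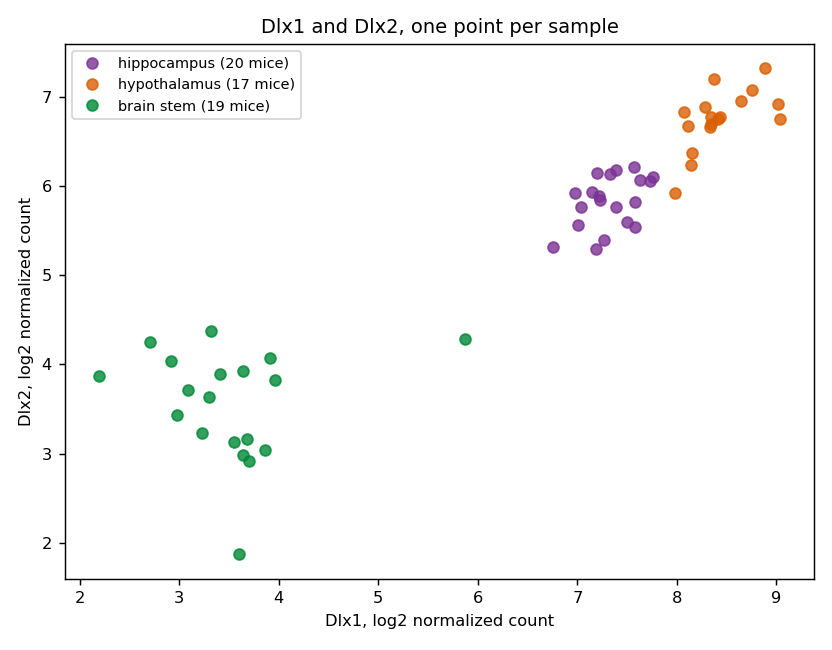
Log2 normalized count of Dlx2 (y axis) against Dlx1 (x axis), 1 point per sample, colored by region. The samples form separate clusters by region, and the brain stem sample with the highest Dlx1 (5.87) has a Dlx2 of 4.28.

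The r of 0.94 between the Dlx neighbors came from the regions. Within hippocampus, after group means were subtracted, r was 0.52 (Spearman rho 0.41, permutation p = 0.038 and 0.113, n = 20), and within hypothalamus it was 0.57 (rho 0.59, permutation p = 0.0189 and 0.0253, n = 17). In brain stem r was -0.16 (rho -0.24, permutation p = 0.589 and 0.364, n = 19). Without the 2 mice farthest from the Dlx1 median these r were 0.31, 0.70 and -0.56. None of the 3 passed adjustment over the 45 pairs of members (adjusted p of 0.215, 0.158 and 0.736).

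None of the 45 pairs of members passed the adjusted threshold, and 9 had a permutation p under 0.05 before adjustment. The smallest was Dlx1 with Tbr1 in brain stem (r = 0.54, rho = 0.67, permutation p = 0.0013 and 0.0020, adjusted p = 0.0594, n = 19, and r = 0.68 without the 2 farthest mice). Eomes and Reln in brain stem had the highest r, 0.69 (rho 0.50, permutation p = 0.0057 and 0.0476, adjusted p = 0.128, n = 19, and r = 0.68 without the 2 farthest mice). In hippocampus Eomes and Mef2c ran in opposite directions before adjustment only (r = -0.53, rho = -0.57, permutation p = 0.021 and 0.0118, adjusted p = 0.158, n = 20, and r = -0.51 without the 2 farthest mice).

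Eomes was the least steady of the 6 genes between mice. Its values covered a 14.3-fold range in brain stem, 9.62-fold in hippocampus and 6.76-fold in hypothalamus, and its SD within groups was above that of 98.1% to 99.0% of the panel. Its means were 5.74 in brain stem, 4.94 in hippocampus and 4.59 in hypothalamus, below the sample medians, and noise of low counts was not measured. Dlx2 in hippocampus, with a like mean of 5.83, had an SD within groups of 0.29, against 0.90 for Eomes in brain stem. Within hypothalamus Tbr1 was nearly as wide, with an SD of 0.65 at a mean of 4.67, against 0.72 for Eomes. Dlx1 (12.9-fold), Dlx2 (5.66-fold) and Tbr1 (5.87-fold) also spread widely in brain stem, where all were low. Mef2c stayed within 1.88-fold in brain stem, 2.22-fold in hypothalamus and 2.78-fold in hippocampus, and Reln within 2.84-fold, 1.83-fold and 2.50-fold.

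Some of this spread moved with marker genes of the dissected tissue. The 6 genes were set beside Ttr, Slc17a6 and Slc17a7 within each region, a choice made after the values were seen, and 9 of the 54 pairs passed adjustment. In brain stem Reln rose with Slc17a7 (r = 0.82, rho = 0.73, permutation p = 0.00046 and 0.0015, adjusted p = 0.0074 and 0.0275, n = 19, and r = 0.75 without the 2 mice farthest in Slc17a7). Eomes did so too (r = 0.70, rho = 0.63, permutation p = 0.0040 and 0.0101, adjusted p = 0.0312 and 0.0607, n = 19, and r = 0.56 without those mice). The mice left out here were mouse 2 and mouse 10, so mouse 11, which was also high, stayed in.

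Both genes ran against Slc17a6 in brain stem. For Eomes r was -0.83 (rho -0.72, permutation p = 0.00045 and 0.0030, adjusted p = 0.0074 and 0.0325, n = 19, and -0.67 without the 2 farthest mice). For Reln r was -0.73 (rho -0.50, permutation p = 0.0064 and 0.0539, adjusted p = 0.0385 and 0.224, n = 19), and it was -0.32 without the 2 farthest mice, mouse 2 and mouse 11, so this relation rests on them. Mouse 2 had 9.78 for Reln and 10.63 for Slc17a7, and mouse 11 had 9.57 and 10.49, the highest of the region in both genes. Within brain stem, in a search added after the values were seen, Reln was most like Kit (r = 0.93), Nptx1 (0.91) and Camk4 (0.90), and Eomes was most like B3gnt5 (0.91), Camk4 (0.87) and Chn2 (0.86). Mef2c was most like Nrgn (0.75), Sox4 (0.70) and Rac1 (0.69). The part of tissue composition in these relations was not tested.

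**Figure D4:**
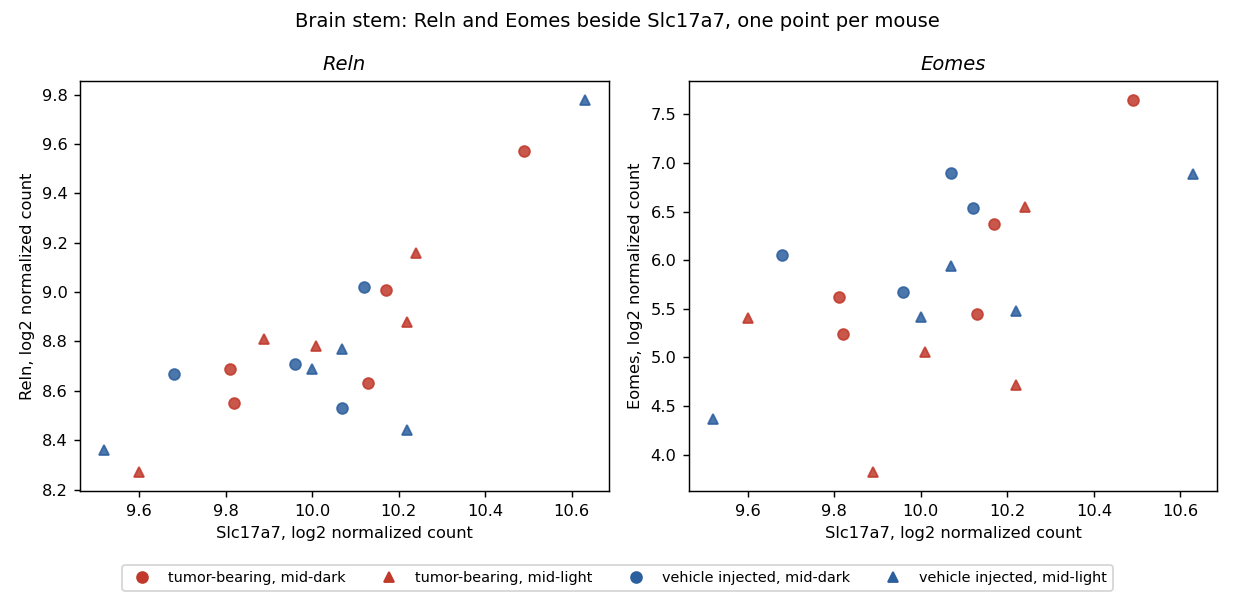
Log2 normalized count of Reln (left) and Eomes (right) against that of Slc17a7 in the brain stem of 19 mice, 1 point per mouse, by tumor status and phase. Mouse 2 (Slc17a7 of 10.63) and mouse 11 (10.49) lie at the upper right in both panels. Vehicle injected mid-dark mice ran only from 9.68 to 10.12 in Slc17a7, and tumor-bearing mid-light mice from 9.60 to 10.24.

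In hypothalamus it was Mef2c that followed the transporters. It rose with Slc17a7 (r = 0.88, rho = 0.86, n = 17, and r = 0.90 without the 2 farthest mice), and both permutation p were 1e-05, the smallest that the permutations can give (adjusted p = 0.00054). It also rose with Slc17a6 (r = 0.81, rho = 0.74, permutation p = 0.0024 and 0.0048, adjusted p = 0.0254 and 0.0430, n = 17, and r = 0.67 without the 2 farthest mice). Dlx1 ran the other way, falling where Slc17a7 was high (r = -0.73, rho = -0.76, permutation p = 0.0036 and 0.0022, adjusted p = 0.0312 and 0.0298, n = 17, and r = -0.64 without the 2 farthest mice). The highest Mef2c of the region, 10.66, was in mouse 4, which also had the highest Slc17a7 of 9.05, and the part of tissue taken with the hypothalamus in this was not tested.

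In hippocampus Tbr1 rose with Slc17a7 (r = 0.71, rho = 0.79, permutation p = 0.00055 and 0.00038, adjusted p = 0.0074 and 0.0103, n = 20, and r = 0.69 without the 2 farthest mice). Mef2c fell as Ttr rose (r = -0.68, rho = -0.61, permutation p = 0.0060 and 0.0093, adjusted p = 0.0385 and 0.0607, n = 20, and r = -0.41 without the 2 farthest mice, 7 and 28). The hippocampus of mouse 7 had the lowest Ttr of the region (5.36) and its highest Mef2c (12.94), Tbr1 (8.94) and Reln (9.49). The next lowest Ttr, 6.62 in mouse 28 and 6.82 in mouse 13, came with Mef2c of 11.88 and 11.93.

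Tumor status was then examined within each region. No member passed the threshold for tumor minus vehicle averaged over phases in limma, in hippocampus (0.52% of the panel passed), hypothalamus (0.26%) or brain stem (1.04%). At mid-dark none passed, with 0.13%, 0% and 0.26% of the panel, and at mid-light none passed, with 0.13%, 0% and 0.78%. Before adjustment 1 member had p under 0.05 in each of the 3 kinds of comparison, Eomes in hypothalamus in the average and at mid-light, and Mef2c in hippocampus at mid-dark. With ordinary unmoderated p values the same results were under 0.05 before adjustment and none after it. With so few genes past the threshold in the panel, 0 of 6 is near the background.

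Eomes was lower in the hypothalamus of tumor-bearing mice before adjustment only. At mid-light the 5 tumor-bearing mice had 3.13, 3.41, 3.84, 4.29 and 4.95, and the 4 vehicle injected mice had 4.88, 5.10, 5.34 and 5.55. The groups overlapped through the highest tumor-bearing mouse. At mid-dark the tumor-bearing mice had 2.79, 4.45, 4.90, 4.98 and 5.25, and the 3 vehicle injected mice had 4.55, 5.27 and 5.37. The log2 difference was -1.29 at mid-light (95% confidence interval -2.25 to -0.34, adjusted p = 0.617), -0.59 at mid-dark (adjusted p = 0.980), and -0.94 over both (-1.64 to -0.24, adjusted p = 0.365). Eomes in hippocampus was level over both phases (-0.0039, 95% confidence interval -0.86 to 0.85), and in brain stem the difference was -0.36 (-1.17 to 0.45). RNA purity was uneven beside these values. In hypothalamus mouse 1 of the tumor-bearing mid-light group had an A260/230 ratio of 0.44 and the lowest Eomes of that group, and the log2 difference at mid-light without it was -1.09. In brain stem the A260/280 ratio at mid-dark ran from 1.34 to 1.99 with tumors and from 1.95 to 2.01 with vehicle, and its part in the brain stem comparisons was not tested.

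Lymphocyte markers were read beside Eomes because T and NK cells use it. None of the 13 T and NK cell genes passed for tumor minus vehicle in hypothalamus, and the log2 of their summed level ran from 7.26 to 7.63 in tumor-bearing and 7.27 to 7.41 in vehicle mice at mid-dark, and from 7.39 to 7.61 and 7.22 to 7.49 at mid-light. At least 1 of these genes was at the lowest value of the table in each group, among them Prf1, which encodes perforin, and Cd8a, a T cell coreceptor. The summed level mainly follows the highest of these genes, and single genes went in both directions. Over both phases the 2 lowest in p value were Cd3e, with a log2 difference of -0.37, and Gzma, with 0.39. At mid-dark they were Cd3e at -0.91 and Klrd1 at 0.81, and at mid-light Gzma at 0.52 and Prf1 at 1.53. The part of lymphocytes in the Eomes values was not tested. Among the cell division and immature neuron genes in hypothalamus, E2f1, a factor of cell cycle entry, had -0.61 (adjusted p = 0.365) and Mcm2 had -0.39 (adjusted p = 0.456), and none of the 14 passed.

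Mef2c in hippocampus at mid-dark had 11.69, 11.99, 11.99, 11.99 and 12.94 in tumor-bearing mice and 11.46, 11.52, 11.69, 11.84 and 11.88 in those given vehicle. Most tumor-bearing mice were above all vehicle injected mice, and 1 was not. The log2 difference was 0.44 (95% confidence interval 0.076 to 0.80, adjusted p = 0.626), and it was 0.23 without mouse 7, the mouse with the lowest Ttr of the region. At mid-light the tumor-bearing mice had 11.71, 11.76, 11.78, 11.93 and 11.93, inside the vehicle injected range of 11.61 to 12.16. The regulators of MEF2 factors had 0 of 15 tested genes past the threshold in hippocampus, with Camk4, a calcium-dependent kinase, at 0.11 (adjusted p = 0.777) and Mapk14, a kinase that phosphorylates MEF2C, at 0.09 (adjusted p = 0.784).

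Reln showed small tumor differences in every region. Averaged over phases they were 0.09 in hippocampus (95% confidence interval -0.16 to 0.34), -0.09 in hypothalamus (-0.31 to 0.14) and 0.07 in brain stem (-0.31 to 0.44). The intervals leave out differences of 0.5 on the log2 scale in either direction. None of the 12 genes of the reelin pathway passed for tumor minus vehicle in any region. The lowest adjusted p among them was that of Grin2a in hypothalamus (-0.29, adjusted p = 0.365). None of the 33 neuron and synapse genes passed either.

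**Figure D5:**
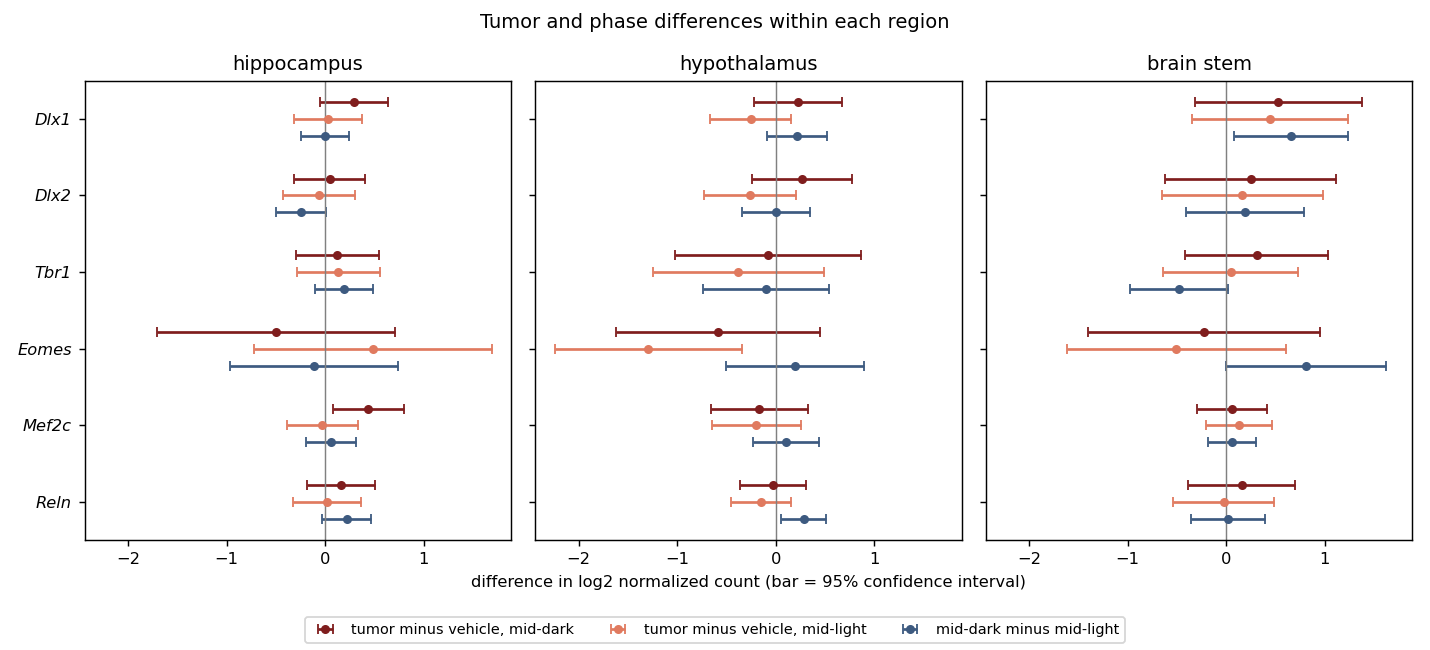
Fitted differences in log2 normalized count (x axis) for tumor minus vehicle at mid-dark, at mid-light, and for mid-dark minus mid-light averaged over tumor status, in hippocampus, hypothalamus and brain stem, with 95% confidence intervals that are not adjusted for the number of genes. The intervals of Eomes are the widest, and those that leave out 0 are Mef2c in hippocampus at mid-dark, Eomes in hypothalamus at mid-light, and the phase differences of Reln in hypothalamus and of Dlx1 and Eomes in brain stem.

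Phase was compared as mid-dark minus mid-light, averaged over tumor status. No member passed in limma in hippocampus (5.59% of the panel passed), hypothalamus (2.34%) or brain stem (4.94%), and 3 results had p under 0.05 before adjustment. Without a tumor, Reln in hypothalamus was at 8.24, 8.28 and 8.29 at mid-dark against 7.76, 7.98, 8.14 and 8.30 at mid-light. In tumor-bearing mice it was at 7.97, 8.10, 8.34, 8.40 and 8.40 against 7.53, 7.72, 7.91, 8.06 and 8.27. The phases overlapped in both, and the log2 difference was 0.28 ± 0.11 (95% confidence interval 0.06 to 0.51, adjusted p = 0.258).

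In brain stem Dlx1 was at 3.23, 3.41, 3.68 and 3.96 at mid-dark in vehicle injected mice and at 2.19, 2.92, 2.98, 3.09 and 3.60 at mid-light. In tumor-bearing mice it was at 3.32, 3.55, 3.86, 3.91 and 5.87 against 2.70, 3.30, 3.64, 3.64 and 3.70. The difference of 0.66 ± 0.28 did not pass (adjusted p = 0.222), and it was 0.44 without mouse 11. With the 3 regions in a single model it did pass, at 0.66 with an adjusted p of 0.0424. That model uses the same spread for a gene in all regions. The SD of Dlx1 within groups was 0.64 in brain stem, 0.27 in hippocampus and 0.31 in hypothalamus, so this p takes too small a spread for brain stem. Eomes in brain stem had 0.81 ± 0.38 (adjusted p = 0.313). It moved with Slc17a6 and Slc17a7 there, as Reln did, and the phase difference of Reln in brain stem was 0.02 ± 0.18. Those relations were computed with group means subtracted, and their part in the phase difference was not tested. At mid-light the A260/280 ratio of brain stem ran from 1.51 to 1.97 in tumor-bearing and from 1.72 to 1.99 in vehicle injected mice, beside the mid-dark ranges above.

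Among the lists read beside the members, a few activity genes passed for phase. Jun, an immediate early factor, and Bdnf, a neurotrophin and known MEF2 target, were higher at mid-dark in brain stem (log2 differences 0.33 and 0.35, adjusted p = 0.0125 and 0.0150). Hdac4, a class IIa histone deacetylase that represses MEF2 factors, was higher at mid-dark in hippocampus (0.35, adjusted p = 0.00086). Egr1, an immediate early factor, was lower at mid-dark in hypothalamus (-1.03, adjusted p = 0.00083). These 4 results are all that passed among the 16 genes of that list over the 3 regions. Of the reelin pathway 0 of 12 passed in any region, of the neuron and synapse genes Bdnf in brain stem, and of the cell division list Ncaph in brain stem (-0.37) and Cdc7 in hippocampus (0.30).

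The tumor difference was also compared between phases and between regions. No member passed for the interaction of tumor and phase in limma in any region, and 0% of the panel did, with no member under p of 0.05 before adjustment. The widest was Eomes in hippocampus, where the tumor difference was -0.50 at mid-dark and 0.49 at mid-light (interaction -0.99, 95% confidence interval -2.69 to 0.72, adjusted p = 0.775). For the tumor difference between regions 0% of the panel and none of the 6 passed, and 1 was under 0.05 before adjustment, Mef2c for hippocampus minus hypothalamus (0.40, 95% confidence interval 0.03 to 0.76, adjusted p = 0.768), which was 0.23 without mouse 4. The difference for Eomes between these regions was 0.89 (-0.24 to 2.01, adjusted p = 0.948). For Slc17a7, which Mef2c followed in hypothalamus, it was 0.88 (limma adjusted p = 0.936). The tumor difference of Slc17a7 in hypothalamus was -0.92 (adjusted p = 0.777), and its part in the Mef2c result was not tested.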

How the data were processed

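RNA from hippocampus, hypothalamus and brain stem was assayed with the nCounter panel. The authors made the deposited log2 values from probe counts with nSolver (negative background subtraction, positive control and CodeSet content normalization), followed by quantile normalization in Partek, which gives all samples nearly the same distribution, so that a difference is relative to the panel. Of 60 listed samples 56 had values. Per the labels, outliers in the raw data were left out, and the brain stem of mouse 8 and the hypothalamus of mice 10, 12 and 32 were not analysed here.

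Groups came from the sample labels, and a replicate is a mouse. Region differences were fitted over all genes with limma 3.58.1 in R 4.3.3, with 12 group means and the mouse as a random block (the 3 regions of a number are from the same animal, consensus correlation 0.136). Tumor and phase differences were fitted in each region with 4 group means. P values were adjusted by Benjamini-Hochberg over all 770 genes, or over 769 in hippocampus and brain stem, where 1 gene was constant. The models were tested on simulated data. Correlations within a region used group-centered values and 100000 two-sided permutations within groups (Python 3.11.15, numpy 2.4.6, scipy 1.17.1), adjusted over 45 pairs of members or 54 pairs of member and marker. Confidence intervals are at 95%. Plots were drawn with matplotlib 3.10.9.

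The 6 genes and the gene lists were chosen with earlier results of these data known. By rule all 6 were named, with the 3 genes of highest r and, for each list, at most 2 genes, those lowest in adjusted p value. Grin2a for hypothalamus against brain stem was named outside this rule. Not on the panel were 12 of 24 reelin pathway genes, 4 of 20 MEF2 regulators and 4 of 18 cell division genes. Alternatives were the fit without the block, the mouse as a fixed term, vehicle injected mice only, ordinary p values, other scalings (sample medians, 13 reference genes, quantiles within a region), a mean log2 value of at least 5, other sets of samples in the model, and leaving out each mouse.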

Additional observations from a re-analysis of the deposited data

Results flagged for a closer look

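In 66 groups of 4 or 5 mice (a gene in a region, tumor status and phase) the extreme mouse was set against the rest by Dixon's gap, and 7 groups stood past its 95% critical value, where chance gives about 5%. Mouse 7 (tumor-bearing, mid-dark) was high in hippocampus for Mef2c (12.94, others 11.69 to 11.99) and Reln (9.49, others 8.51 to 8.78), and its Ttr there was 5.36 against 12.36 to 13.77 in the other mice of its group. Mouse 11 of the same group had 5.87 for Dlx1 in brain stem, with 3.32 to 3.91 in the others.

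In brain stem of vehicle injected mice at mid-light, mouse 2 was high for Reln (9.78, others 8.36 to 8.77) and low for Tbr1 (3.70, others 4.13 to 4.27), and mouse 10 was low for Dlx2 (1.87, others 3.43 to 4.04). In hippocampus of the same group, mouse 30 was high for Reln (8.92, others 8.34 to 8.43). No tumor difference of the 6 genes differed between phases or regions past the adjusted threshold.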

How the results depend on the processing

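The counts of members past the threshold were recomputed for 21 comparisons, and 564 of 570 recomputed counts stayed within 1.5 times the value reported. The other 6 each rose from 0 to 1. With ordinary p values and no adjustment these were Eomes in hypothalamus for tumor minus vehicle over both phases and at mid-light, Mef2c in hippocampus for tumor minus vehicle at mid-dark, Reln in hypothalamus for phase, and Dlx1 in brain stem for phase. The model over 3 regions, which uses the same spread for a gene in all regions, also gave 1 for phase in brain stem, Dlx1. Without the replicate block the paired regions gave 5, 5 and 6 members for hippocampus against hypothalamus, hippocampus against brain stem and hypothalamus against brain stem, and the block changed no call. Of 673 recomputed differences of single members, 1 reversed, Eomes for hippocampus minus hypothalamus in vehicle injected mice only, at -0.158 (adjusted p = 0.733), and 1 lost its call, Eomes for hypothalamus minus brain stem in the same mice (-0.86). Reln for hippocampus minus brain stem passed with the reference gene mean subtracted (-0.22, adjusted p = 0.0343), among genes with a mean of at least 5, and without mouse 7, 10, 29 or 30, over a range of -0.25 to -0.12 for all mice left out. The cause of these changes was not tested. Eomes, and in brain stem Dlx1, Dlx2 and Tbr1, were low, and with unknown depth their counting error is unknown. RNA yields differed between regions (medians of 1176, 687.4 and 2699 ng per microliter in hippocampus, hypothalamus and brain stem). The lowest single purity ratios were in brain stem (A260/280 of 1.34) and hypothalamus (A260/230 of 0.44). The medians of A260/280 were close (1.97, 1.96 and 1.96), and those of A260/230 were 2.32, 2.05 and 2.02. The part of either in the differences was not tested.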
